A study of Mus musculus with 6 samples.

Results

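A set of 10 genes of the Notch pathway, chosen by name as rows of the deposited count table, was examined in the vestibular sensory epithelium. They were the receptors Notch1 and Notch2, the ligands Jag1, Jag2, Dll1 and Dner, the receptor modifier Lfng, and the targets Hes1, Hes5 and Hey1, which make 10 of the 52636 genes in the table. The 6 libraries came from male 129S1/SvImJ mice that were 2 to 4 months old when exposure began. In the Control group, 3 animals drank plain water, and in the IDPN group, 3 animals drank water with 30 mM 3,3'-iminodipropionitrile (IDPN), a nitrile toxic to hair cells (HCs), the sensory cells of the vestibular and auditory organs, for 8 weeks. Each library came from 1 animal, with its 2 utricles and 6 cristae pooled, and the labels name no transgene or engineered allele. The comparison asks which of these genes differ in RNA level between exposed and unexposed epithelium.

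Notch receptors are single-pass membrane proteins that bind ligands on the neighboring cell. Binding exposes the receptor to ADAM proteases and then to gamma-secretase, which releases an intracellular fragment that enters the nucleus, joins the DNA-binding protein RBPJ and activates genes of the Hes and Hey families, themselves repressors of transcription. In the developing inner ear, cells that become HCs carry ligands such as Dll1 and Jag2, and Notch activity in their neighbors keeps those neighbors as supporting cells. Jag1 is known as a ligand of prosensory and supporting cells. Outside the sensory cells, Notch signaling also runs in endothelium and in the mural cells of small vessels.

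In this dissected tissue, markers of HCs and of other cells moved with the groups or with single libraries. Sequencing depth was even, at 40474847 to 43566332 estimated counts in a library. The HC list held 17 genes, of which 8 were called lower and 0 higher, and its summed level was 816000 to 1074000 normalized counts in Control and 603600 to 806400 in IDPN. Spp1, which was not called, made up 93.8% of that sum, and the other HC markers summed to 57130 to 64240 in Control and 39460 to 43420 in IDPN. The supporting cell list (13 genes) had 11 lower and 2 higher estimates, with a median log2-Fold_Change of −0.39. DESeq2 called 1 gene in each direction and edgeR called 1, with 7 and 5 at an unadjusted p under 0.05. Its sums were 363800 to 509700 in Control and 260700 to 318600 in IDPN. The neuron list (8 genes, 5 with a Padj) had 2 genes called lower by DESeq2, and edgeR called 1. Its sums were 4377 to 4534 in Control and 2712 to 3090 in IDPN, with 69.5% of the total from Nefl. In the erythroid list (5 genes), 4 were called higher by DESeq2 (Padj = 0.0295 to 0.0327) and 0 by edgeR, with 4 at an unadjusted p under 0.05 by each. The erythroid sums were 16170 to 36640 in Control and 34690 to 49090 in IDPN. The endothelium sums (12 genes, 1 called lower) ran from 8869 to 14060 in Control and from 8735 to 13180 in IDPN, and the mural cell sums (9 genes, 0 called by DESeq2 or edgeR, 1 at an unadjusted p under 0.05 by each) from 8713 to 12630 and from 10470 to 12550. The 5 melanocyte markers all had higher estimates in IDPN, with sums that did not overlap (6056 to 14050 in Control, 14340 to 21800 in IDPN), and 0 were called by DESeq2 or edgeR, with 3 at an unadjusted p under 0.05 by each. Of the 10 macrophage markers, 8 had higher estimates (sums of 2184 to 3066 and 2683 to 3890). Among them 1 was called higher by DESeq2 and 0 by edgeR, with 4 of the 10 at an unadjusted p under 0.05 by each. Of the 7 stroma markers, 6 had a Padj, all with higher estimates (sums of 20440 to 39050 and 35990 to 38680), and 0 were called by DESeq2 or edgeR, with 1 at an unadjusted p under 0.05 by each. Over all genes tested, 5.75% were called by DESeq2 and 3.21% by edgeR, and 16.9% had an unadjusted p under 0.05 by DESeq2. How far any of the marker lists enters the differences of the Notch genes was not tested. The animal called IDPN 2 stood apart in the immediate early genes, whose 14 listed members summed to 524400 normalized counts there and to 7362 to 15090 in the other 5 libraries. IDPN 2 was also the highest library for 8 of the 10 macrophage markers. By their sample titles, all 3 Control animals have 1 code stem and the IDPN animals have others, so treatment and whatever the stem marks cannot be told apart. In bulk tissue, fewer cells of a type and less RNA per cell cannot be told apart either.

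Promoter sequence is shown for Dner, which had the largest difference among the members with an adjusted p, for the only member promoters that held the core of the RBPJ recognition sequence, and for Hey2, a target from the wider pathway list that was called. RefSeq windows (GRCm38.p6, the 250 bases before an annotated start) matched 8 of the 10 members, all but Hes1 and Hey1, with 9 windows. Each sequence below runs 5′ to 3′ on the strand of its gene, ends before the first annotated exon base, and carries in capitals each TGGGAA found on either strand (on the other strand it reads TTCCCA).
Dner, chr1:84696222-84696471, minus strand: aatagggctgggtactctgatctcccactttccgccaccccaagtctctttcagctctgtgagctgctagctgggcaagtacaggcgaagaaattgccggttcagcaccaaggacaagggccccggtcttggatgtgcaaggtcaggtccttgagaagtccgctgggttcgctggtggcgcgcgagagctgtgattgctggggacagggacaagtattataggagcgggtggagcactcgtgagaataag
Hes5, chr4:154960673-154960922, plus strand: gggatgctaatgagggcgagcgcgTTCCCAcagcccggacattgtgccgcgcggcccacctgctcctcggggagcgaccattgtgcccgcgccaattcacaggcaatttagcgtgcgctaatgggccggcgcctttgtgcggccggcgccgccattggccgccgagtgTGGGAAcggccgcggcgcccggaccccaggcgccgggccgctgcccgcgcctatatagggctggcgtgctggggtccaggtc
Lfng, chr5:140607091-140607319, plus strand: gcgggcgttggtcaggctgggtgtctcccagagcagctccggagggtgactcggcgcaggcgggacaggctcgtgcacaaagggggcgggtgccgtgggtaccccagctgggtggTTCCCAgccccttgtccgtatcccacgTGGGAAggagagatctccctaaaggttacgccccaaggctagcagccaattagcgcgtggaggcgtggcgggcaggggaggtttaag
Hey2, chr10:30842802-30843033, minus strand: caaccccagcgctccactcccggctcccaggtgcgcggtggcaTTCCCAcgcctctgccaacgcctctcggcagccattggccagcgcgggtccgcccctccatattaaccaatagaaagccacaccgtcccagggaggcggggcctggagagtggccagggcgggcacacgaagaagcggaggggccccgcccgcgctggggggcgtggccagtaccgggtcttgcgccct

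TGGGAA was present in 2 of the 9 member windows (22.2%), and in 21.6% of all 32851 windows of the same length. In Hes5 it began 226 and 82 bases before the start, and in Lfng 135 and 108 bases before it. The Dner window held none. In Lfng the second copy overlaps by 2 letters the E-box CACGTG, which was in 1 of the 9 member windows (11.1%) and in 6.02% of all windows. CACGCG, a sequence bound by Hes repressors, was in 4 member windows (44.4%), those of Dll1, Jag1, Notch2 and Lfng, and in 7.62% of all. Member windows held 11 to 54 CpG dinucleotides, against a median of 6 over all windows. These matches describe letters only, and binding was not measured.

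Of the 10 members, 9 received an adjusted p (Padj, DESeq2 Wald test with Benjamini-Hochberg adjustment over all genes tested), and 3 of those 9 were called. A call needed a Padj under 0.05 and a fold change over 1.5. Notch1 was upregulated and Dll1 and Dner were downregulated. Over all 17650 genes tested, 5.75% were called, 2.32% as higher and 3.42% as lower. The members were chosen with earlier results of these data known, so the 2 shares are given as a description only. The Control and IDPN libraries did not overlap in 4 of the 9 members, against 22.5% of all genes tested. The median log2-Fold_Change was −0.09 over the members and 0.015 over all genes tested. By edgeR's quasi-likelihood test only Dner of the members was called, and 3.21% of 16310 genes were.

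**Figure D1:**
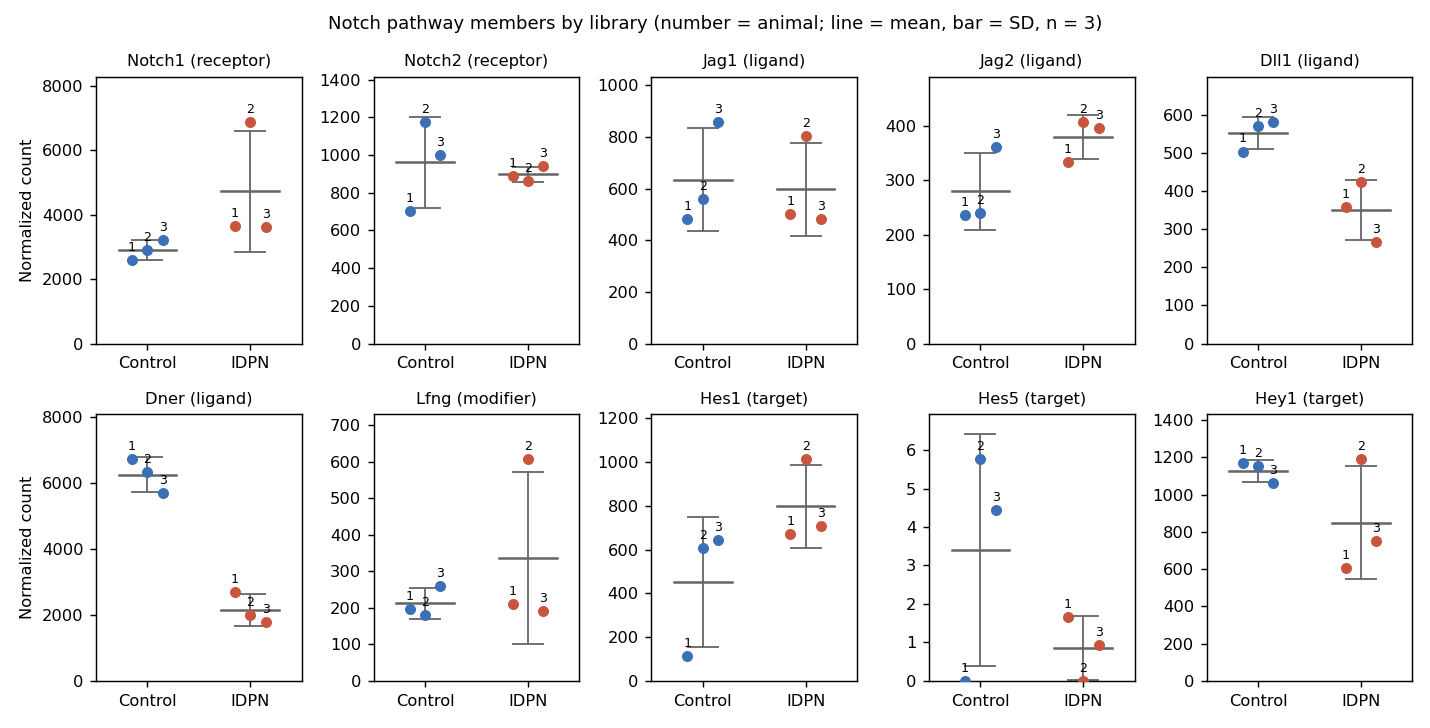
Normalized counts (vertical axes, from 0) of the 10 members in each of the 3 Control and 3 IDPN animals, with points numbered by animal, lines at the group mean and bars of 1 SD. The Dner libraries lie at 5679 to 6720 in Control and 1777 to 2677 in IDPN, while the Notch1 mean in IDPN is drawn up by animal 2 at 6897.

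Notch1 (ENSMUSG00000026923.15, chr2:26457903-26516663, minus strand) encodes the receptor best known from developing and adult sensory epithelia. It was at 2600, 2907 and 3211 normalized counts in Control 1 to 3 and at 3654, 6897 and 3635 in IDPN 1 to 3. All IDPN libraries lay above all Control libraries, and IDPN 2 was 1.89 times the mean of the other IDPN animals. The log2-Fold_Change was 0.70 (SE 0.24, DESeq2 Padj = 0.0480), a 1.63-fold difference with a 95% interval from 1.18 to 2.24. The call was lost without IDPN 2 (0.33, DESeq2 Padj = 0.355), without Control 1 (0.62, Padj = 0.258) and without Control 2 (0.70, Padj = 0.217), and Notch1 was not called by edgeR (Padj = 0.168) or limma voom (Padj = 0.171). Exons of 2 opposite-strand genes, 0610009E02Rik and Gm13568, overlap those of Notch1, and reads of the opposite strand cannot be told apart without strand information.

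Notch2 (ENSMUSG00000027878.11, chr3:98013527-98150361, plus strand), the second receptor, was at 702, 1178 and 1002 normalized counts in Control and at 887, 862 and 942 in IDPN. The IDPN values lay inside the Control range. Its log2-Fold_Change was −0.10 (SE 0.21, DESeq2 Padj = 0.886), with a 95% interval from −0.51 to 0.31, and the sign turned with total-count scaling (0.14). Notch3 and Notch4, the receptors known from mural cells and endothelium, were much less abundant. Notch4 was at 27.9, 34.6 and 58.7 normalized counts in Control and at 99.3, 82.3 and 84.9 in IDPN. These groups did not overlap, yet Notch4 was not called (log2-Fold_Change 1.12, SE 0.40, DESeq2 Padj = 0.0659). Notch3 was at 43.7, 58.9 and 58.7 normalized counts in Control and at 74.5, 72.3 and 78.4 in IDPN, also without overlap. Notch3 was not called either (log2-Fold_Change 0.48, SE 0.36, DESeq2 Padj = 0.554). Notch4 was called without Control 3 and with the filter on low counts.

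Dner (ENSMUSG00000036766.12, chr1:84369839-84696221, minus strand) encodes a membrane protein with EGF repeats, named for its likeness to Delta and Notch and described as an atypical Notch ligand in neurons. It was at 6720, 6329 and 5679 normalized counts in Control and at 2677, 1982 and 1777 in IDPN. Every IDPN library was below every Control library by a wide gap. Dner was 2.91-fold lower in IDPN (log2-Fold_Change −1.54, SE 0.18, DESeq2 Padj = 3.15e-14), from a mean of 6243 ± 526 to 2145 ± 472 (SD, n = 3 each), and ranked 43 by p among all genes. The call held under all 14 alternative settings, with edgeR (Padj = 0.00223) and limma voom (Padj = 0.00162) among them, and the log2-Fold_Change lay between −1.73 and −1.42 when any 1 library was left out. Genes of the HC marker list ranged from −1.98 (Ocm) to 0.015 (Myo7a) on the same log2 scale, with a median of −0.70, and their part in the Dner difference was not tested. Dner is in the list of downregulated genes that the study drew partly from these libraries, so its direction here is not independent evidence. The study marks Dner as selective for HCs over supporting cells. It also reports weaker DNER immunolabel in crista HCs of exposed rats, a measure of protein in other animals. The microRNA gene Mir5126 lies on the opposite strand within a Dner exon.

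Dll1 (ENSMUSG00000014773.13, chr17:15367354-15376872, minus strand), a Delta ligand of nascent HCs, was at 503, 571 and 582 normalized counts in Control and at 358, 423 and 267 in IDPN. The groups did not overlap. Dll1 was 1.58-fold lower (log2-Fold_Change −0.66, SE 0.22, DESeq2 Padj = 0.0416), with a 95% interval on the log2 scale from −1.09 to −0.23. This call was close to the threshold. It was lost with edgeR (Padj = 0.0940), limma voom (Padj = 0.0858) and total-count scaling (log2-Fold_Change −0.43, DESeq2 Padj = 0.371), and of the 6 fits that left out 1 library, only that without IDPN 2 kept it (−0.82, DESeq2 Padj = 0.0125), the others giving a DESeq2 Padj of 0.0822 to 0.218. The log2 difference was negative in all of these fits, from −0.82 to −0.50 when 1 library was left out. Without strand information, reads of the opposite-strand gene A930024N18Rik cannot be told apart from those of Dll1 where exons overlap.

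Jag2 (ENSMUSG00000002799.6, chr12:112907819-112929776, minus strand), a Serrate-type ligand also known from nascent HCs, was at 237, 240 and 361 normalized counts in Control and at 334, 408 and 397 in IDPN. Control 3 overlapped the IDPN animals. The log2-Fold_Change was 0.44 (SE 0.24, DESeq2 Padj = 0.337; 95% interval −0.03 to 0.90), and Jag2 was called higher when Control 3 was left out (0.67, DESeq2 Padj = 0.0354). Jag1 (ENSMUSG00000027276.7, chr2:137081456-137116644, minus strand) was at 481, 561 and 859 normalized counts in Control and at 502, 805 and 482 in IDPN. The groups overlapped throughout, with 1 high animal in each. The log2-Fold_Change of −0.09 (SE 0.26, DESeq2 Padj = 0.923) had a 95% interval from −0.61 to 0.43, and its sign changed with scaling and with the library left out. Of the 4 ligands, Dner and Dll1 were thus called lower, and Jag1 and Jag2 were not called.

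Lfng (ENSMUSG00000029570.5, chr5:140607320-140615545, plus strand) encodes Lunatic fringe, a glycosyltransferase that adds sugar to the EGF repeats of Notch and alters its response to Delta and Jagged ligands. It was at 196, 180 and 260 normalized counts in Control and at 209, 607 and 192 in IDPN. A single animal, IDPN 2, was 3.02 times the mean of the other IDPN animals, which lay within the Control range. The log2-Fold_Change was 0.66 (SE 0.37, DESeq2 Padj = 0.369) with all libraries and −0.08 (DESeq2 Padj = 0.957) without IDPN 2, the library that also stood apart in the immediate early genes.

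Hes1 (ENSMUSG00000022528.7, chr16:30064384-30067796, plus strand), a repressor and classical Notch target, was at 112, 605 and 642 normalized counts in Control and at 671, 1014 and 707 in IDPN. The groups did not overlap, but Control 1 was far below the other Control animals. With a log2-Fold_Change of 0.82 and an SE of 0.72, Hes1 was not called (DESeq2 Padj = 0.643), and the 95% interval ran from −0.59 to 2.22. Without Control 1 the log2-Fold_Change was 0.35 (DESeq2 Padj = 0.609).

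Hey1 (ENSMUSG00000040289.8, chr3:8663359-8667256, minus strand), a related repressor, was at 1169, 1152 and 1061 normalized counts in Control and at 608, 1192 and 749 in IDPN. The Control animals were close together, and IDPN 2 lay above all of them while IDPN 1 and IDPN 3 lay below. Hey1 was not called (log2-Fold_Change −0.41, SE 0.23, DESeq2 Padj = 0.382; 95% interval −0.87 to 0.05), but was called lower without IDPN 2 (−0.73, DESeq2 Padj = 0.00550). Hes5 (ENSMUSG00000048001.7, chr4:154960923-154962371, plus strand), a target of strong Notch activity in developing epithelia, had 0, 5 and 5 raw counts in Control and 2, 0 and 1 in IDPN. Hes5 was thus at the limit of detection in both groups, where a count of 0 allows up to 3 counts in a library. Its fitted log2 difference was too imprecise to read a direction from (95% interval −5.97 to 2.04), and DESeq2's independent filtering left it without a Padj (0.905 with that filtering off).

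**Figure D2:**
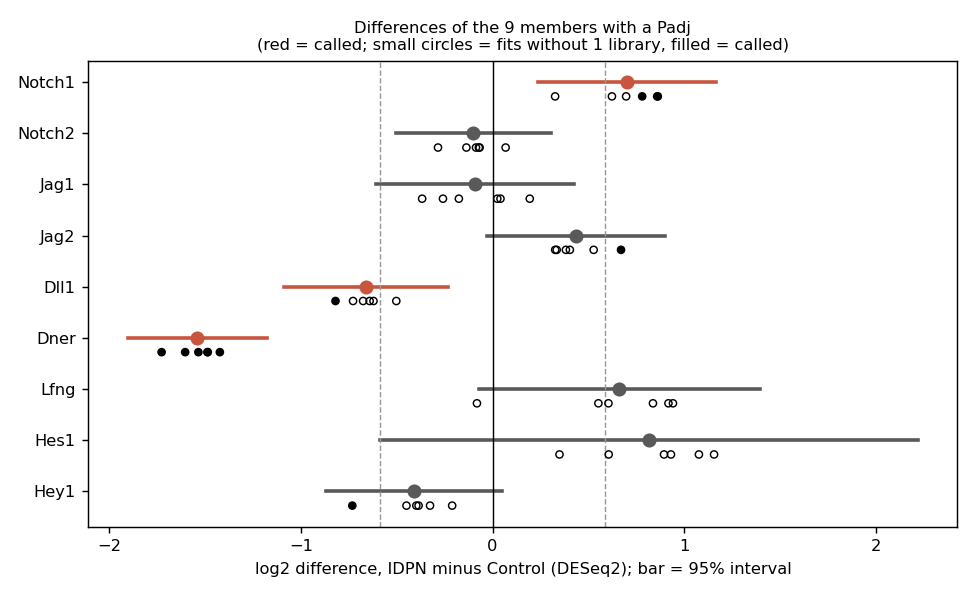
Log2 difference between IDPN and Control (horizontal axis, DESeq2) of the 9 members with a Padj, with 95% intervals as bars, called genes in red, dashed lines at a 1.5-fold difference, and small circles for the 6 fits that each leave out 1 library, filled where the gene was called. The 6 Dner circles lie between −1.73 and −1.42 and are all filled, while 3 of the 6 Notch1 circles and 1 of the 6 Dll1 circles are.

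Beyond the members, a list of 52 further genes covered the rest of the pathway, and 48 of them received a Padj. Fbxw7, Dlk2 and Hey2 were downregulated and Dtx3l was upregulated, which makes 4 of 48 (8.33%), beside 5.75% of all genes tested. This list too was chosen with earlier results of these data known. Of the 48, 26 had a higher and 22 a lower estimate, with a median log2-Fold_Change of 0.0087. Among the 10 genes of receptor cleavage (ADAM proteases, furin and gamma-secretase subunits), 0 were called by DESeq2 or edgeR, and 1 had an unadjusted p under 0.05 by each test. Likewise 0 of the 12 nuclear genes (Rbpj, Maml coactivators, corepressors) were called by either test, with 2 at an unadjusted p under 0.05 by each. The 4 other modifiers and the 4 genes of ligand endocytosis had 0 called by either test and 0 at an unadjusted p under 0.05. The share of all genes tested at an unadjusted p under 0.05 by DESeq2 was 16.9%.

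Fbxw7 (chr3:84815268-84979198, plus strand), the substrate-recognition subunit of a ubiquitin ligase that marks the active Notch fragment for degradation, among other substrates, was at 1615, 1708 and 1617 normalized counts in Control and at 306, 206 and 342 in IDPN. It was 5.78-fold lower (log2-Fold_Change −2.53, SE 0.21, DESeq2 Padj = 1.15e-31), with groups far apart, and is also in the study's list of downregulated genes. Dlk2 (chr17:46297421-46303271, plus strand), an atypical Delta-like membrane protein, was at 1292, 1073 and 1454 normalized counts in Control and at 675, 701 and 439 in IDPN. It was 2.10-fold lower (log2-Fold_Change −1.07, SE 0.22, DESeq2 Padj = 5.57e-05), and no IDPN library reached the lowest Control. Its exons overlap those of Abcc10 on the opposite strand.

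Hey2 (chr10:30832359-30842801, minus strand), a repressor of the Hey family whose promoter is printed above, was at 395, 334 and 568 normalized counts in Control and at 180, 116 and 252 in IDPN. The groups did not overlap, and Hey2 was 2.36-fold lower (log2-Fold_Change −1.24, SE 0.30, DESeq2 Padj = 0.00134). It was called in each of the 6 fits that left out 1 library, but missed the threshold narrowly with edgeR (Padj = 0.0553) and limma voom (Padj = 0.0511), and also with total-count scaling (DESeq2 Padj = 0.0894). Dtx3l (chr16:35926511-35939151, minus strand), a Deltex-type ubiquitin ligase that also acts in the DNA damage and interferon responses with its partner Parp9, was at 198, 189 and 286 normalized counts in Control and at 349, 304 and 543 in IDPN. It was 1.78-fold higher (log2-Fold_Change 0.83, SE 0.27, DESeq2 Padj = 0.0427), the call was lost without Control 1, Control 2, IDPN 1 or IDPN 3 (0.54 to 0.92, DESeq2 Padj = 0.0792 to 0.375) and with edgeR (Padj = 0.128), and its exons overlap those of Parp9 on the opposite strand.

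**Figure D3:**
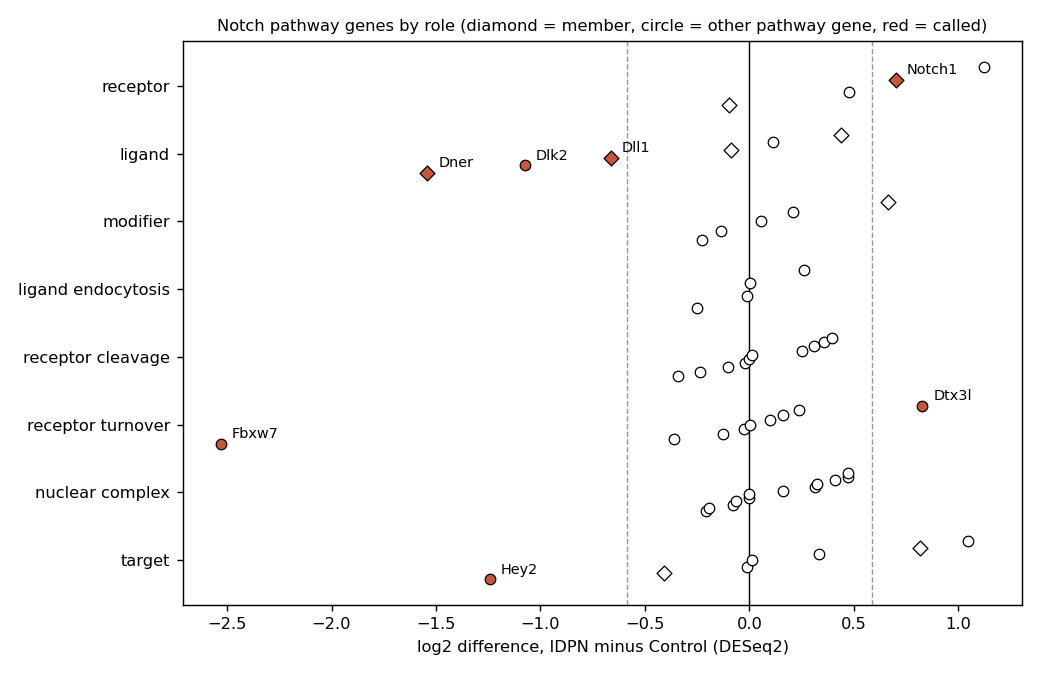
Log2 difference between IDPN and Control (horizontal axis, DESeq2) of the tested members (diamonds) and the 48 other tested pathway genes (circles), grouped by role, with called genes in red and dashed lines at a 1.5-fold difference. The 7 called genes lie among the receptors, ligands, receptor turnover genes and targets, from Fbxw7 at −2.53 to Dtx3l at 0.83.

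Compared per length (normalized counts per kilobase of annotated exon), Dner was the most abundant member in Control at 1305 ± 110 (SD, n = 3), ahead of Hey1 at 345 ± 17.9. Neither overlapped its neighbor in the order. Hes1 (222 ± 145) and Notch1 (204 ± 21.5) followed with overlapping ranges, and then Dll1 (131 ± 10.1), Jag1 (109 ± 34.2), Notch2 (89.1 ± 22.3) and Lfng (84.7 ± 16.8), each overlapping the next. Jag2 (40.1 ± 10.2) and Hes5 (2.5 ± 2.22) were lowest and stood apart.

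In IDPN the order per length was Dner (448 ± 98.6), Hes1 (392 ± 92.5), Notch1 (332 ± 132), Hey1 (260 ± 93.2), Lfng (134 ± 93.8), Jag1 (102 ± 31.1), Notch2 (83.2 ± 3.76), Dll1 (82.8 ± 18.6), Jag2 (54.5 ± 5.74) and Hes5 (0.633 ± 0.609). Every neighboring pair down to Dll1 overlapped in range, including Dner and Hes1, which lay far apart in Control. Among the other pathway genes, those with the highest level per kilobase in their role in Control were Psenen, a gamma-secretase subunit (1749 in Control and 1381 in IDPN), Dlk2 (602 and 286), the glucosyltransferase gene Poglut1 (599 and 545), the RBPJ cofactor gene Snw1 (594 and 594), Dtx3 (547 and 585), Hes6 (448 and 453), the ubiquitin ligase gene Mib2 (343 and 288) and Notch3 (6.64 and 9.28). Except for Dlk2, none of these was called.

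Within a role, shares of the summed level per kilobase do not depend on the scaling between libraries, and they are given without a test. The shares of one total are tied, so that a lower share of one gene raises the others. Notch1 made up 71.2%, 62.8% and 67.7% of the receptor total (Notch1 to Notch4) in Control and 71.2%, 83.0% and 70.4% in IDPN, so that the group means of 67.3% and 74.9% differed mainly through IDPN 2. Among the canonical ligands (Jag1, Jag2, Dll1, Dll3 and Dll4), Dll1 held 41.0%, 44.8% and 33.6% in Control and 30.4%, 26.4% and 26.2% in IDPN. Jag2 held 11.7%, 11.4% and 12.6% in Control and 17.1%, 15.4% and 23.6% in IDPN. The Dll1 share was lower and the Jag2 share higher in IDPN without overlap, although the normalized counts of Jag2 itself did overlap and Jag2 was not called. Jag1 held 32.0% ± 3.76 and 33.8% ± 2.83 (SD, n = 3 each).

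Among the targets (Hes1, Hes5, Hey1, Hey2 and Heyl), Hes1 held 6.54%, 27.1% and 28.1% in Control and 35.4%, 32.2% and 36.9% in IDPN. Hey1 held 42.7%, 32.2% and 29.0% in Control and 20.0%, 23.6% and 24.4% in IDPN. As shares, Hes1 was higher and Hey1 lower in every IDPN animal than in any Control animal, although neither gene was called. The normalized counts of Hey1 itself overlapped, with IDPN 2 at 1192 against 1061 to 1169 in Control. The Hey2 share, also without overlap, was 9.31% ± 2.35 in the Control animals against 3.89% ± 2.11 after IDPN (SD, n = 3 each). Heyl, a Hey relative known from vessel walls, held 35.3% ± 4.62 and 38.6% ± 5.03, and its normalized counts were highest in IDPN 2, at 3356 against 1584 to 1917 in the other 5 libraries.

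**Figure D4:**
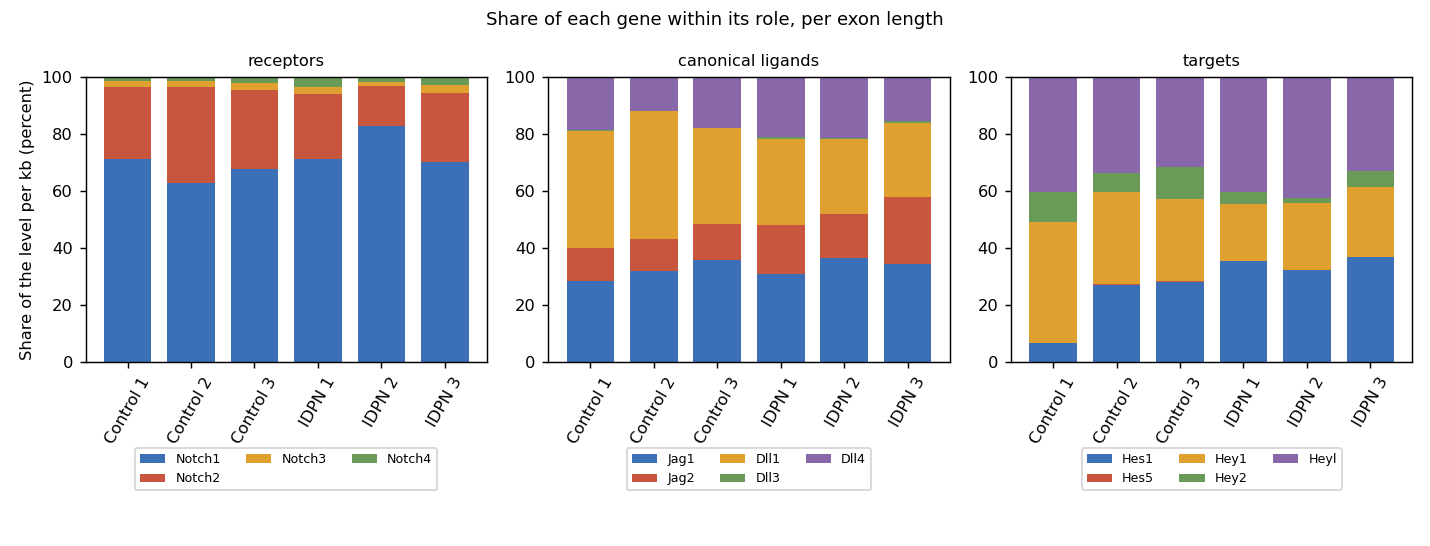
Share of each gene in the summed level per kilobase of its role (percent, vertical axis) in each library, for the receptors, the canonical ligands and the targets. Dll1 takes 33.6% to 44.8% of the ligand total in Control and 26.2% to 30.4% in IDPN, and Hey1 takes 29.0% to 42.7% of the target total in Control and 20.0% to 24.4% in IDPN.

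For each called member, the genes most like it over the 6 libraries were taken by Pearson correlation of log2(normalized count + 1), among 11195 genes with a mean of at least 100 normalized counts. Notch1 was closest to Bcar1 (r = 0.994), Pdlim7 (r = 0.992) and Usp36 (r = 0.991), Dll1 to Ccer2 (r = 0.996), Syp (r = 0.992) and Slc39a11 (r = 0.990), and Dner to Nek2 (r = 0.999), Utrn (r = 0.997) and Cpq (r = 0.997). The 3 genes closest to Dner were all lower in IDPN, with log2-Fold_Change values of −1.70 for Nek2, −0.61 for Utrn and −2.59 for Cpq (DESeq2 Padj = 1.71e-14, 0.00282 and 3.22e-31). That direction followed from their choice by likeness to Dner, whose groups lay far apart, and is not a separate result. Nek2, like Dner, is also in the study's list of downregulated genes. These correlations rest on 6 libraries that share the group difference and the scaling, and are descriptions without a test.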

How the data were processed

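RNA-seq was analysed from 6 libraries (3 Control, 3 IDPN). Libraries were made from 6 to 11 ng of total RNA by a SMART-seq2 protocol, which primes on poly(A) tails, carries no molecular identifiers and keeps no strand information in its standard form. The authors aligned reads with STAR 2.5.3a to GRCm38 (versions per the submitters' processing notes) and quantified GENCODE genes with RSEM 2.3.0. The deposited values are the expected counts that the authors estimated with RSEM from these alignments, as whole numbers, unfiltered and not normalized. RSEM splits reads shared by similar genes.

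Counts of all genes were fitted with DESeq2 1.42.0 (R 4.3.3; median-of-ratios size factors, 0.825 to 1.21; independent filtering and Cook filter on, no covariate). Normalized counts are counts over these size factors. Intervals are the estimated group difference ± 1.96 SE. Variation between animals enters through the SE, and the interval is not the range of the animals. Alternatives were edgeR 4.0.16, limma 3.58.1 (voom), TMM or total-count scaling, a filter of at least 10 counts in 3 samples, both DESeq2 filters off, a test against a 1.5-fold change, and each library left out. Exon lengths and positions came from GENCODE M21 on the same build, a later release than the authors' annotation. Replicate libraries differed by far more than counting noise (chi-square per degree of freedom of 37.3 to 145). Code was tested on simulated data.

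The members and gene lists were chosen with earlier results of these data known. Named genes were all members, the called genes and the gene with the highest level per length of each role of the pathway list, and the 3 genes most like each called member. Notch4, Heyl, Ocm and Myo7a were named after their values were seen.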

Additional observations from a re-analysis of the deposited data

How the results depend on the processing

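Each library came from a different animal and the labels give no pairing of Control with IDPN animals, so no paired analysis was done. The number of animals, 3 a group, limits the precision, and Hes5, with few counts, had a Padj only with independent filtering off (0.905). Members called higher numbered 1, and 0 with edgeR, voom, the filter on low counts, independent filtering off or the test against a 1.5-fold change. Members called lower numbered 2, and 1 with edgeR, voom, total-count scaling, independent filtering off or the test against a 1.5-fold change. Other pathway genes called higher numbered 1, 0 with edgeR, voom, independent filtering off or the test against a 1.5-fold change, and 2 with total-count scaling or the filter on low counts. Other pathway genes called lower numbered 3, 2 with edgeR, voom or total-count scaling, and 1 in the test against a 1.5-fold change. Leaving out 1 library gave 0 to 2 members higher and 1 to 3 lower, and 0 to 2 other pathway genes higher and 3 lower. Total-count scaling moved the median log2-Fold_Change of all genes tested from 0.015 to 0.27, and under it the sign turned for Notch2 (0.14), Jag1 (0.085), Poglut1 (0.12), Snw1 (0.26) and Mib2 (0.0064). Snw1 also turned with edgeR (0.0044), voom (0.0038) and TMM size factors (0.0035). Without 1 library the log2-Fold_Change ran from −0.37 to 0.19 for Jag1, −0.28 to 0.068 for Notch2, −0.081 to 0.94 for Lfng, −0.014 to 0.18 for Dtx3, −0.10 to 0.24 for Hes6 and −0.066 to 0.041 for Snw1. With the longest coding transcript as length, the Notch1 share in Control was 74.8%, the Jag1 share in IDPN 30.9% and the Hes1 share in IDPN 37.3%. Where a call changed, the cause was not tested. Dner and Fbxw7 were called under all 14 alternatives each.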

Other observations

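Transcription factors that act beside the Notch pathway in the inner ear were read from the marker lists, chosen after their values were seen. Atoh1, which drives HC formation and is repressed by Hes and Hey proteins in development, was at 342, 364 and 416 normalized counts in Control and at 251, 160 and 280 in IDPN, without overlap, and was not called (log2-Fold_Change −0.70, SE 0.25, DESeq2 Padj = 0.0703). The later HC factors Gfi1 (−1.21, SE 0.17, DESeq2 Padj = 2.87e-10) and Pou4f3 (−1.0, SE 0.14, DESeq2 Padj = 9.34e-10) were downregulated. Sox2, a factor of supporting cells and type II HCs, was not called (−0.42, SE 0.30, DESeq2 Padj = 0.534), while Sox10, a factor of supporting cells, Schwann cells and melanocytes, was upregulated, from 1938, 2625 and 3073 normalized counts in Control to 4025, 4752 and 4562 in IDPN (log2-Fold_Change 0.80, SE 0.19, DESeq2 Padj = 0.00108). The summed level of the 7 Schwann cell markers ran from 94770 to 216000 in Control and from 84060 to 100700 in IDPN, and that of the 5 melanocyte markers from 6056 to 14050 and from 14340 to 21800, without overlap. In the list of 13 supporting cell markers, which includes Sox10, 11 genes had lower and 2 had higher estimates in IDPN. The part of any of these 3 lists in the Sox10 difference was not tested.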
